A study of Bos taurus with 24 samples.

Results

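The comparison set 5 bovine ovarian follicles with the highest RNA levels of progesterone synthesis genes against the 5 with the lowest, out of 16 follicles in all, and described all other genes between them. The follicles were chosen by the mean measured level of CYP11A1, HSD3B1 and FDX1. The high follicles were C12, C35, 26, 861 and H893, the low follicles were C10, C26, 31, 46 and J980, and the other 6 lay between. The groups therefore come from measured values of these samples and not from the labels, which name the follicles by identifiers alone, without treatment, stage, age or breed.

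The follicles were the largest of each of 16 heifers, 8 to 12 mm wide, so each animal gave 1 follicle. Total RNA, 5 µg of each follicle, was hybridised to 24 two-colour arrays with 2 follicles per array and 3 arrays per follicle. The RNA is of follicles as collected, so fewer cells of a type and less RNA per cell cannot be told apart. Granulosa and theca genes had values on the arrays, but a log ratio holds no absolute level, so the presence of a cell type could not be checked.

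In the follicle wall, cholesterol is cut to pregnenolone in the mitochondrion by CYP11A1, the side-chain cleavage enzyme, which takes its electrons from FDX1, the ferredoxin adrenodoxin. HSD3B1 then turns pregnenolone into progesterone. Theca cells carry this pathway in growing follicles, and granulosa cells gain it as the follicle nears ovulation and becomes a corpus luteum.

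The level of a gene in a follicle was fitted from the arrays that linked the follicles and is given on the log2 scale with the mean over all 16 set to 0. The ratio was taken as Cy5 over Cy3, which is likely from the labels but not stated. With the inverse ratio the high and low follicles would exchange names, and a gene higher where the ranking genes are higher would remain so. Precision of a level is limited by the number of arrays. A high minus low difference had a median SE of 0.10, taken from the spread of levels between follicles of a group.

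The mean level of the 3 ranking genes was 0.56 in C12, 0.32 in C35, 0.29 in 26, 0.27 in 861 and 0.23 in H893, against -0.19 in C10, -0.28 in C26, -0.34 in 31, -0.39 in 46 and -0.50 in J980. Array error gave these means an SE of 0.094 to 0.107, with the errors of the 3 genes taken as independent. The genes were read from the same arrays, and an error common to them would widen this SE. C22, at 0.10, lay just outside the high group and H893 just inside it. C32, at -0.08, lay just outside the low group and C10 just inside it. These values chose the groups and are given as a description.

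The 3 genes did not follow each other in every follicle. CYP11A1 was at 0.95 in C12, 0.26 in C35, 0.37 in 26, 0.45 in 861 and -0.12 in H893, against -0.06 in C10, -0.43 in C26, -0.36 in 31, 0.18 in 46 and -1.06 in J980. Its SE was 0.257 to 0.292, the widest of the 3, and the groups overlapped through H893 and 46. HSD3B1 was at 0.38 in C12, 0.34 in C35, 0.29 in 26, -0.05 in 861 and 0.10 in H893, against -0.04 in C10, -0.11 in C26, -0.28 in 31, -0.44 in 46 and -0.63 in J980. Here 861 and C10 were nearly level. FDX1 was at 0.35 in C12, 0.35 in C35, 0.22 in 26, 0.41 in 861 and 0.72 in H893, against -0.47 in C10, -0.29 in C26, -0.39 in 31, -0.90 in 46 and 0.17 in J980. FDX1 separated the groups, though J980 lay close to the lowest high follicle. H893 thus entered the high group through FDX1, and J980 the low group through CYP11A1 and HSD3B1.

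**Figure D1:**
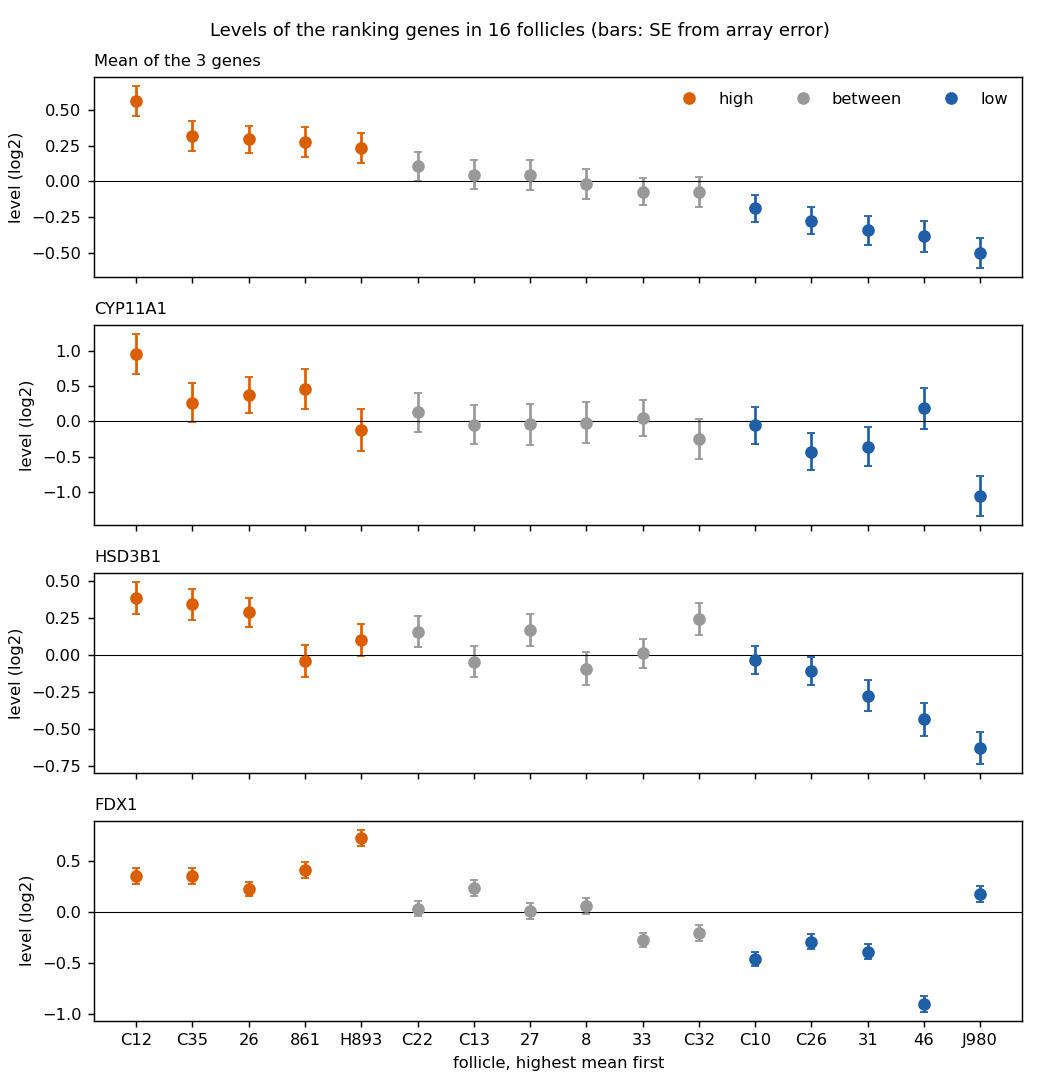
Level on the log2 scale (y axis, 0 is the mean of 16 follicles) of the mean of the 3 ranking genes and of CYP11A1, HSD3B1 and FDX1 in each follicle, ordered by that mean (x axis). Points are fitted levels, bars their SE from array error, and colours the high, between and low follicles. J980 was the lowest of the 16 for CYP11A1 (-1.06) and HSD3B1 (-0.63) but stood at 0.17 for FDX1.

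On 6 arrays a high and a low follicle were hybridised together. On these the log2 ratio of high over low ran from 0.37 to 1.61 for CYP11A1, from 0.02 to 0.87 for HSD3B1 and from 0.03 to 1.33 for FDX1. The lowest FDX1 ratio was that of 26 over J980. On 3 arrays both follicles were high and on 1 both were low.

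Follicle J980 stood apart from the others. The SD of its levels over all genes was 0.334, while the other 15 follicles lay between 0.187 and 0.243. It held the lowest level of the 16 for 15.3% of genes and the highest for 13.6%. Where J980 moved a called count, an unadjusted call or a difference by over 1.5 times, the value without it in the low group is also given, except for differences within 0.1 of 0.

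Of 9028 genes tested between high and low follicles, 0 passed an adjusted p of 0.05 by limma with Benjamini-Hochberg adjustment (0%), and the smallest adjusted p was 0.459. At an unadjusted p under 0.05 there were 475 genes (5.26%), of which 249 were higher (2.76%) and 226 lower (2.5%) in high follicles. The groups did not overlap for 38 higher genes (0.421%) and 23 lower genes (0.255%), together 0.676% of genes. For a random split of 10 follicles into 5 and 5 the probability of no overlap is 0.00794. The share seen was thus no higher than a random split gives. The median difference over all genes was -0.002, with 4435 differences positive and 4593 negative. Without J980 the unadjusted counts were 182 higher and 193 lower, and again 0 genes passed. Without the array of follicle C26 (replicate 1) they were 113 higher and 97 lower. The higher count was 155 without the array of follicle C10 (replicate 1) and 414 without follicle 31. A second fit took array error alone as its error, so it compares these 10 RNA samples and holds no spread between animals. It called 367 genes (4.07%), 244 higher (2.7%) and 123 lower (1.36%). In simulated data with spread between follicles but no shift between the groups, such a fit called 397. That was a single run with genes drawn independently of each other, so it gives no range for the count of 367. In that run 2.97% of genes had an unadjusted p under 0.05 in the limma test between groups, beside the 5.26% seen here. None of the genes below passed the test between groups of animals, so they are described by their levels.

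Among the genes of smallest p, 2 enzymes of isoprenoid synthesis, FDPS and IDI1, and the glutathione transferase GSTA4 had higher levels in high follicles. The smallest p belonged to LOC767968, for which the RefSeq gene table lists BEX1 and BEX2 as synonyms. It was at 0.02 in C12, 0.45 in C35, 0.73 in 26, 0.93 in 861 and 0.88 in H893, against -0.50 in C10, -0.51 in C26, -0.81 in 31, -0.70 in 46 and -0.58 in J980. The groups did not overlap, and all 6 direct ratios were above 0. The difference was 1.22 ± 0.23 (SE; limma, adjusted p = 0.459; exact two-sided permutation p = 0.00794). That permutation p is the smallest that 5 follicles against 5 can give. BEX3, a related gene, had a difference of 0.55 ± 0.13 (adjusted p = 0.54), with 1 low follicle, 31 at 0.13, within the range of the high ones.

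ETFB, a subunit of the flavoprotein that passes electrons from fatty acid oxidation to the respiratory chain, averaged 0.19 ± 0.07 in high and -0.22 ± 0.16 in low follicles (SD, n = 5 each). IDH1, the cytosolic isocitrate dehydrogenase that makes NADPH, averaged 0.34 ± 0.12 in high and -0.25 ± 0.33 in low follicles. Neither gene had overlapping groups, and their adjusted p were 0.459 and 0.505 by limma. PAEP, which encodes a lipocalin, had a difference of 0.27 ± 0.06 with no overlap, but its features disagreed, with differences of 0.05 to 0.67.

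Lower levels in high follicles were seen for HMGN5, a nucleosome-binding protein, with a difference of -0.55 ± 0.12 (limma, adjusted p = 0.459). CD44, the hyaluronan receptor, averaged -0.18 ± 0.20 in high and 0.31 ± 0.22 in low follicles (SD, n = 5 each; adjusted p = 0.706), and the groups met at follicle 26. EPC1, a chromatin protein, had a difference of -0.38 ± 0.09 and groups that did not overlap. PDE6D, TMEM134 and NT5C3A also had no overlap, with differences of -0.30, -0.39 and -0.33. SMAGP and SNRPA1 overlapped through follicle 26, at differences of -0.65 and -0.35.

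**Figure D2:**
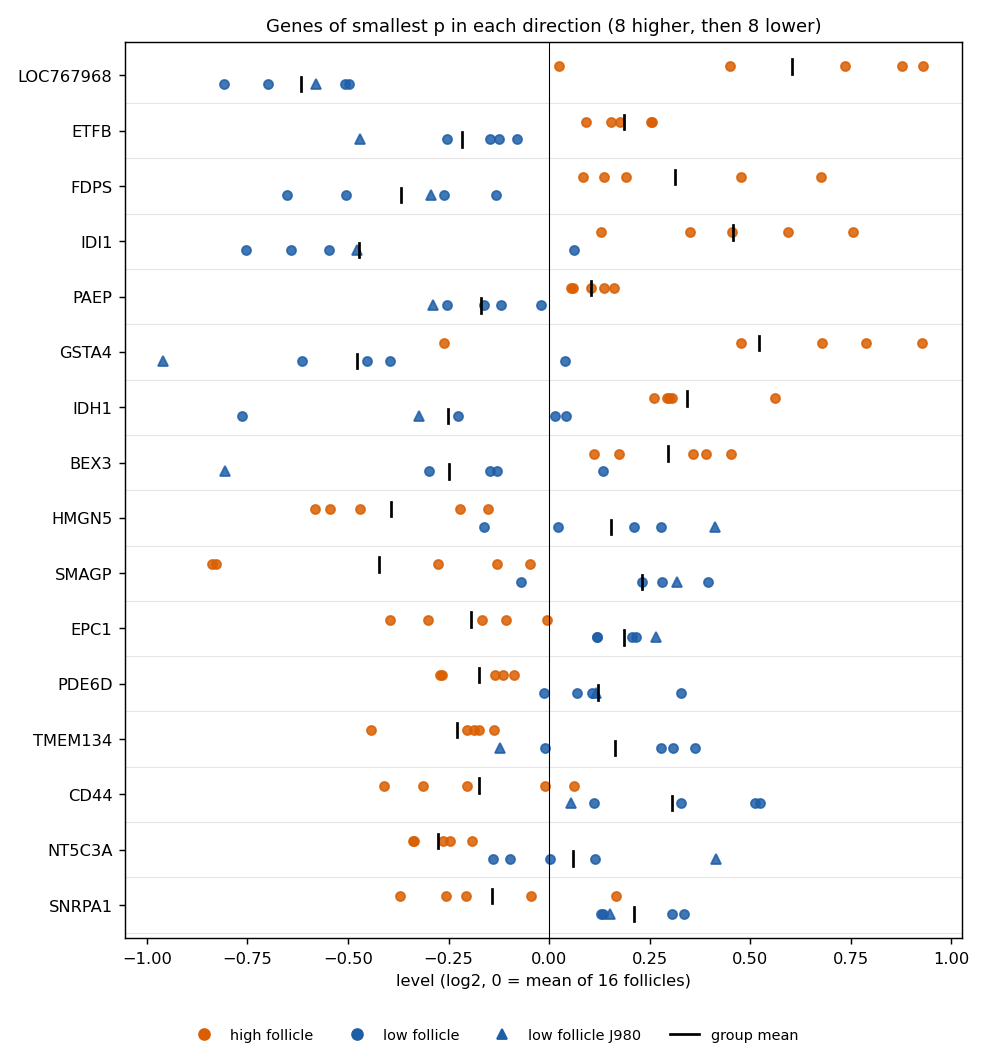
Levels on the log2 scale (x axis) of the 8 genes of smallest p that were higher and the 8 that were lower in high follicles (y axis). Orange points are the 5 high follicles, blue points the 5 low follicles with J980 as a triangle, and black ticks the group means; the widest difference is that of LOC767968 (1.22).

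MAPK3, the kinase ERK1, was named after its values were seen, because it passed when 6 follicles were set against 6. It was at 0.42 in C12, 0.46 in C35, -0.06 in 26, 0.52 in 861 and 0.97 in H893, against -0.28 in C10, -0.78 in C26, -0.50 in 31, -0.55 in 46 and -0.70 in J980. The groups did not overlap and the difference was 1.02 ± 0.25 (limma, adjusted p = 0.54). With C22 and C32 added to the groups its adjusted p was 0.00531. In the same fit FDPS and IDI1 passed, with adjusted p of 0.0184 and 0.00531, and no other gene did.

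The partners of progesterone synthesis themselves, such as sterol carriers, redox partners and regulators, gave few differences. Of 17 measured, 2 were higher and 1 lower at an unadjusted p under 0.05, where 2.76% and 2.5% of all genes were, and 0 passed. The median difference was 0.08. Without J980, 1 was higher and 1 lower. STAR, the cholesterol carrier, FDXR, which reduces FDX1, and LHCGR, the LH receptor, were not analysed here. TSPO, a cholesterol-binding protein of the outer mitochondrial membrane, was at -0.12 in C12, 0.09 in C35, -0.07 in 26, -0.21 in 861 and -0.57 in H893, against 0.49 in C10, 0.31 in C26, 0.18 in 31, 0.40 in 46 and -0.14 in J980. Only J980 among the low follicles lay within the high ones. The difference was -0.42 ± 0.12 (limma, unadjusted p = 0.00269, adjusted p = 0.735), and -0.52 without J980 (unadjusted p = 2.02e-04).

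DBI, the acyl-CoA-binding protein that is a ligand of TSPO, averaged 0.20 ± 0.34 in high and -0.34 ± 0.43 in low follicles (SD, n = 5 each). Its difference was 0.54 ± 0.20 (limma, adjusted p = 0.895), and 0.36 without J980, which was its lowest follicle at -1.07. CYB5R3, a reductase of cytochrome b5, had a difference of 0.23 ± 0.09, and without J980 its unadjusted p was 0.0509. NR5A1 and NR5A2, nuclear receptors of steroidogenic genes, had differences of 0.16 ± 0.15 and 0.24 ± 0.18. GATA4, POR and PRKACA had differences of -0.06, 0.06 and -0.03, each smaller than its SE. HSD3B7, STARD3 and NR4A1 had differences of 0.23 ± 0.12, -0.11 ± 0.06 and -0.26 ± 0.20. CREB1, PRKAR1A, VDAC1, AKAP1, ACBD3 and PDE8A lay between -0.11 and 0.15. Without J980 the differences of CREB1, PRKAR1A, VDAC1 and AKAP1 were -0.04, 0.05, 0.06 and 0.20.

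Of the 25 lists, cholesterol synthesis had the largest share of members higher in high follicles. Of 18 genes measured, 7 (38.9%) were higher at an unadjusted p under 0.05 and 0 lower, where 2.76% of all genes were higher, and 0 passed adjustment. The median difference was 0.10, against -0.002 for all genes. The groups did not overlap for 2 members, FDPS and IDI1, both higher, beside 0.421% of all genes. Without J980, 8 members were higher and the median was 0.12. The count was 3 without the array of follicle C26 (replicate 1), and 4 without the array of follicle C10 (replicate 1), without C35, H893, 31 or 46, or with follicles ranked without FDX1. The higher count over all genes moved too, from 249 to 113 without that array of C26 and to 414 without 31. The list had been examined in these samples before, so its count is no independent evidence of its direction.

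The members were spread along the pathway. Of 8 genes that lead to squalene, 4 were higher at an unadjusted p under 0.05, beside 2.76% of all genes. The median difference of these 8 was 0.21. Of 6 that turn squalene into cholesterol, 3 were higher and the median was 0.29. Of 4 regulators, 0 were, and their differences lay between -0.04 and 0.07. These roles were assigned after the values were seen.

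IDI1, the isomerase that makes the allylic isoprenoid unit, was at 0.35 in C12, 0.46 in C35, 0.13 in 26, 0.59 in 861 and 0.76 in H893, against 0.06 in C10, -0.55 in C26, -0.64 in 31, -0.75 in 46 and -0.48 in J980. High follicle 26 and low follicle C10 were nearest each other. The difference was 0.93 ± 0.20, which is 1.90-fold if the scale is log2 (limma, adjusted p = 0.459; exact permutation p = 0.00794).

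FDPS, which joins isoprenoid units into farnesyl diphosphate, was at 0.19 in C12, 0.14 in C35, 0.08 in 26, 0.48 in 861 and 0.68 in H893, against -0.13 in C10, -0.65 in C26, -0.26 in 31, -0.50 in 46 and -0.29 in J980. Every high follicle was above every low one. The difference was 0.68 ± 0.14 (limma, adjusted p = 0.459), and its 2 features gave 0.57 and 0.79.

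SQLE, the epoxidase of squalene, was at 0.67 in C12, 0.24 in C35, -0.19 in 26, 0.85 in 861 and 1.19 in H893, against 0.16 in C10, -0.88 in C26, -0.71 in 31, -0.28 in 46 and -0.92 in J980. The groups overlapped, since 26 lay below C10. The difference was 1.08 ± 0.32, or 2.11-fold (limma, adjusted p = 0.776). On the array that held 26 and C10 together, the log2 ratio of SQLE was -0.35, and on the other 5 direct arrays it was 0.73 to 1.72.

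NSDHL, a sterol dehydrogenase, had a difference of 0.44 ± 0.15 (limma, adjusted p = 0.875), and its 2 features gave 0.20 and 0.67. FDFT1, the squalene synthase, had a difference of 0.34 ± 0.15, but its 3 features ranged from -0.003 to 0.59. MVD, the mevalonate diphosphate decarboxylase, and HSD17B7, which reduces a sterol ketone, had differences of 0.29 ± 0.13 and 0.23 ± 0.09. TM7SF2, a sterol reductase, had a difference of 0.34 ± 0.23, and 0.58 without J980, where it was highest at 0.77.

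The other members showed smaller differences. HMGCS1, the synthase of HMG-CoA, had a difference of -0.02 ± 0.19. SREBF1, SREBF2, INSIG1 and SCAP, regulators of sterol synthesis, had differences of -0.04, 0.01, -0.01 and 0.07. DHCR7, EBP, PMVK, ACAT2 and MVK lay between -0.06 and 0.14.

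**Figure D3:**
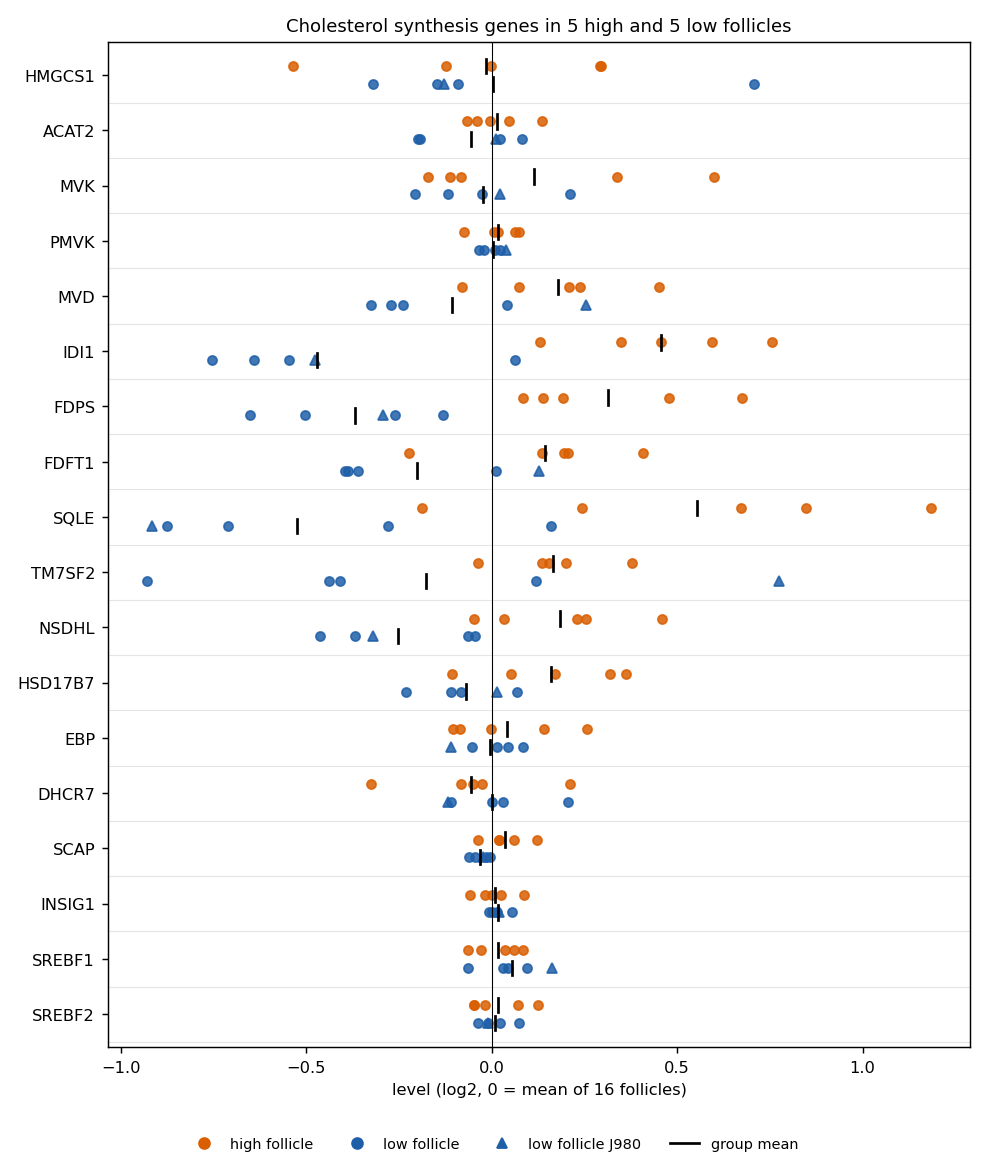
Levels on the log2 scale (x axis) of the 18 cholesterol synthesis genes (y axis, in pathway order with regulators last). Orange points are high follicles, blue points low follicles with J980 as a triangle, and ticks group means. IDI1 and FDPS separate the groups, while the regulators lie near 0 in both.

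Uptake, storage and efflux of cholesterol gave 2 higher and 0 lower members of 19 at an unadjusted p under 0.05, beside 2.76% and 2.5% of all genes, with a median difference of -0.005. Without J980, 2 were higher and 1 lower. PLIN3, a lipid droplet coat protein, and LRPAP1, a chaperone of lipoprotein receptors, had differences of 0.41 ± 0.15 and 0.45 ± 0.17 (limma, adjusted p = 0.895 and 0.897). Without J980 the unadjusted p of LRPAP1 was 0.053. SCARB1, the HDL receptor, had a difference of 0.24 ± 0.16, and 0.37 without J980 (unadjusted p = 0.0144), but its 4 features ranged from -0.27 to 0.66.

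Antioxidant and glutathione genes showed a smaller share. Of 37 measured, 7 (18.9%) were higher at an unadjusted p under 0.05 and 0 lower, beside 2.76% and 2.5% of all genes, and the median difference was 0.05. Without J980 6 were higher and the median was 0.02, and with follicles ranked without FDX1 4 were higher. Of 10 glutathione transferases 4 were among the higher members, and of 6 peroxiredoxins 2 were. Of 7 superoxide dismutases, catalase and glutathione peroxidases, 0 were, with differences of -0.07 to 0.29. These subgroups were formed after the values were seen.

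GSTA4, a transferase that clears products of lipid peroxidation, was at 0.48 in C12, 0.79 in C35, -0.26 in 26, 0.93 in 861 and 0.68 in H893, against 0.04 in C10, -0.61 in C26, -0.45 in 31, -0.40 in 46 and -0.96 in J980. Follicle 26 alone among the high ones lay within the low range. The difference was 0.999 ± 0.219 (SE; limma, adjusted p = 0.459), and 0.88 without J980.

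GSTA1 and GSTA3, close relatives that a spotted probe may not tell apart, had differences of 0.54 ± 0.15 and 0.48 ± 0.17, and that of GSTA3 was 0.31 without J980. The 3 features of GSTA1 ranged from -0.28 to 1.08. GSTM3, named after its values were seen like GSR and PRDX1 below, had a difference of 0.65 ± 0.23, and 0.42 without J980. PRDX3, the mitochondrial peroxiredoxin, was at 0.17 in C12, 0.30 in C35, 0.27 in 26, -0.003 in 861 and 0.22 in H893, against -0.13 in C10, -0.14 in C26, -0.13 in 31, -0.38 in 46 and -0.44 in J980. The groups did not overlap, and the difference was 0.43 ± 0.11 (limma, adjusted p = 0.54). GSR, which keeps glutathione reduced, also had no overlap, at 0.24 ± 0.08, and PRDX1 had a difference of 0.39 ± 0.18. Without J980 the difference of PRDX1 was 0.20, at an unadjusted p of 0.118.

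Other antioxidant genes differed less. SOD1 had a difference of 0.29 ± 0.17 and GPX4 0.19 ± 0.14, and without J980 these were 0.12 and 0.11. SOD2, CAT, HMOX1 and GPX3 had differences of -0.06, -0.05, -0.04 and -0.07, and GPX1 0.16 ± 0.17, which was 0.10 without J980. All of these were also named after their values were seen.

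Subunits of oxidative phosphorylation, the respiratory chain and ATP synthase, gave 14 higher (20.9%) and 1 lower of 67 at an unadjusted p under 0.05, beside 2.76% and 2.5% of all genes, with a median difference of 0.11. Without J980 the counts were 7 higher and 0 lower, and the median was 0.10. The higher count was 6 without the array of follicle C26 (replicate 1), 7 without that of follicle C10 (replicate 1) or without 861, 8 without H893 and 9 without C26. It was 5 with follicles ranked without FDX1. Over all genes the higher count was 249, and 113 without that array of C26 and 175 without 861. The lower member was NDUFV3 at -0.17 ± 0.07, named after its values were seen. Of 33 subunits of complex I, 10 were higher, 1 was lower and 26 had a positive difference, where 4435 of all 9028 genes did. Complex III gave 1 higher of 8, complex IV 1 of 9 and ATP synthase 2 of 13. Complex II gave 0 of 4. The division by complex was made after the values were seen.

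NDUFA6, a complex I subunit, was at 0.14 in C12, 0.33 in C35, 0.18 in 26, 0.54 in 861 and 0.30 in H893, against -0.08 in C10, -0.16 in C26, -0.03 in 31, -0.26 in 46 and -1.07 in J980. The groups did not overlap, with J980 far below the rest. The difference was 0.62 ± 0.16 (limma, adjusted p = 0.576), and 0.43 without J980. NDUFA13, another subunit, had a difference of 0.33 ± 0.09 (adjusted p = 0.735). NDUFB9, NDUFB4, NDUFS4 and ATP5F1C, named after their values were seen, had differences of 0.35, 0.28, 0.56 and 0.48. That of NDUFS4 was 0.36 without J980.

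**Figure D4:**
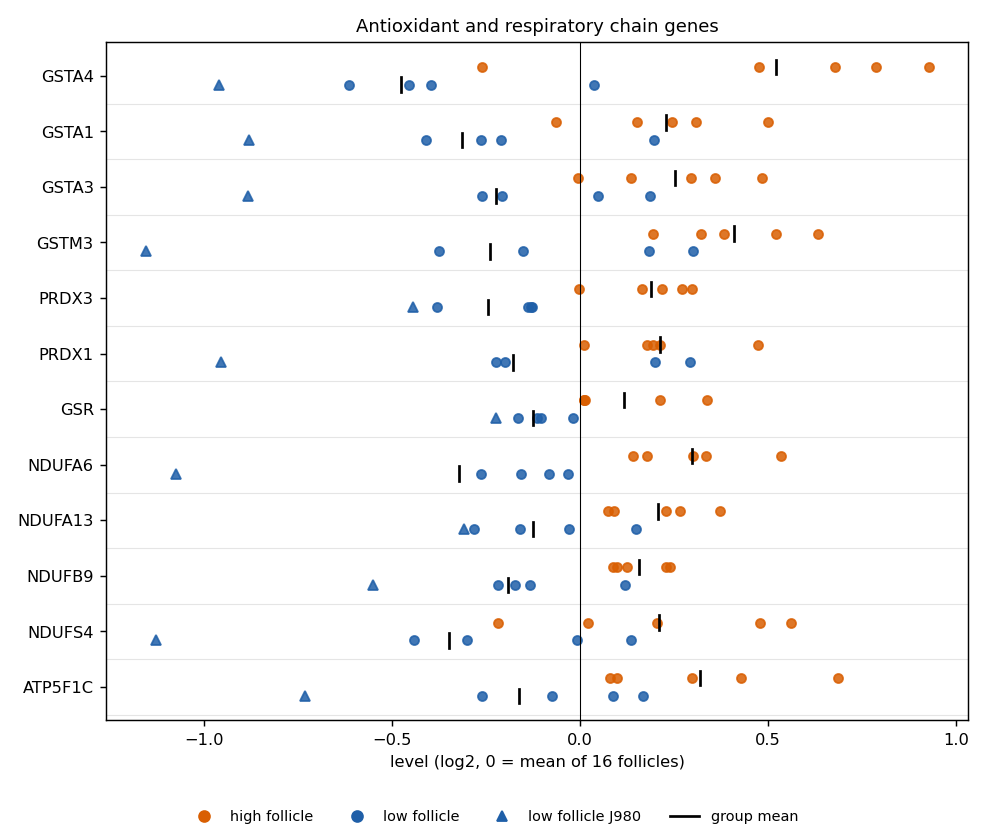
Levels on the log2 scale (x axis) of antioxidant and respiratory chain genes (y axis) in high (orange) and low (blue, J980 as a triangle) follicles, with group means as ticks. J980 was the lowest of the 10 for every gene drawn, and PRDX3, GSR and NDUFA6 did not overlap between the groups.

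Proteasome subunits had the highest median difference of the 25 lists, 0.18, but this rested in part on J980. Of 32 measured, 4 were higher at an unadjusted p under 0.05, beside 2.76% of all genes, and 27 had a positive difference, beside 4435 of 9028. Without J980, 1 was higher and the median was 0.08. The count was also 1 without 861 or the array of follicle C10 (replicate 1), 2 without C12, H893 or the array of follicle C26 (replicate 1), and 11 without 31. Over all genes the higher count was 249, and 175 without 861, 113 without that array of C26 and 414 without 31. PSMB7 and PSMA7 had differences of 0.27 ± 0.10 and 0.25 ± 0.10, and PSMB6, named after its values were seen, 0.45 ± 0.18. Without J980 that of PSMB6 was 0.26, and the unadjusted p was 0.0648 for PSMB6 and 0.0671 for PSMA7. J980 had the lowest mean level of this list in the low group, -0.39, while the other low follicles were at -0.11 or higher.

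Genes of granulosa cells, which line the follicle and make oestradiol, had as many positive as negative differences, 11 of each. Of 22 measured, 0 were higher and 1 was lower at an unadjusted p under 0.05, beside 2.76% and 2.5% of all genes, with a median difference of -0.004. CYP19A1, the aromatase, had a difference of 0.01 ± 0.06, FSHR, the FSH receptor, 0.06 ± 0.14, and INHA, the inhibin alpha subunit, 0.14 ± 0.29, which was 0.003 without J980. AMH, a hormone of small follicles, had a difference of -0.22 ± 0.30. The member past the unadjusted threshold was CRYAB, a small heat shock protein, at -0.76 ± 0.33, and it was highest in 46 at 1.92.

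INHBA, which encodes the activin beta A chain, was at 0.80 in C12, 0.47 in C35, -0.55 in 26, 1.04 in 861 and 0.08 in H893, against -0.06 in C10, -0.24 in C26, 0.17 in 31, 0.52 in 46 and -2.69 in J980. The groups overlapped, and J980 was far below all the others. The difference was 0.83 ± 0.47 (limma, adjusted p = 0.911) and 0.27 without J980. FST, which encodes follistatin, had a difference of 0.65 ± 0.38, and 0.24 without J980. FSTL3, a related binding protein of activin, had a difference of -0.84 ± 0.27 (adjusted p = 0.845), and -0.96 without J980. It was at -0.72 to -0.83 in 4 high follicles and at 0.24 in 26.

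In the IGF system 1 of 13 genes was higher and 1 lower at an unadjusted p under 0.05, beside the same 2.76% and 2.5% of all genes. IGFBP2 had a difference of 0.68 ± 0.28 and IGFBP3 of -0.49 ± 0.19, both being binding proteins of IGF (limma, adjusted p = 0.91 and 0.898). Without J980 neither was past the unadjusted threshold.

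At an unadjusted p under 0.05, where 2.76% of all genes were higher and 2.5% lower, theca genes gave 0 higher and 1 lower of 12. The lower member was GLI1, a hedgehog target, at -0.49 ± 0.23, and without J980 its unadjusted p was 0.129. Of the 3 ranking genes, 2 belong to the theca list and 1 to the luteal list. They chose the groups and were left out of these counts. CYP17A1, STAR and LHCGR of the theca list were not analysed here, so the counts leave out much of its steroid synthesis. Luteal genes gave 2 higher of 13, and these were GSTA1 and GSTA3; without J980, 3 were higher and 1 lower. Ovulation and immediate early genes gave 0 of 16 in either direction. The median differences of these lists were -0.03, 0.09 and 0.01.

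Markers of other tissue in the follicle wall were described list by list. Extracellular matrix genes had a median difference of -0.10, and 26 of 35 were negative, beside 4593 of all 9028 genes. At an unadjusted p under 0.05, 2 were lower, beside 2.5% of all genes. Without J980 6 were lower and the median was -0.13, and without 26 the count was 4. It was 0 without C12, H893 or C26 and 1 without 861, C10 or 46. Over all genes the lower count was 226, and 178 without H893. POSTN, which encodes periostin, had a difference of -0.79 ± 0.37, and -1.03 without J980 (unadjusted p = 0.0109), and its 3 features ranged from -0.90 to -0.72. Smooth muscle and stroma genes had a median of -0.03 and 9 of 15 negative, with CD44 the 1 member below the unadjusted threshold.

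For leukocytes and erythrocytes, 29 of 35 genes had a negative difference, beside 4593 of all 9028, and the median was -0.09, but 0 were past the unadjusted threshold. The mean level of the list was -0.27 to 0.14 in high follicles and -0.25 to 0.47 in low follicles, which overlap. Endothelial genes had 7 positive and 7 negative differences and a median of 0.01, with mean levels of -0.12 to 0.16 in high and -0.11 to 0.17 in low follicles. Of 3 oocyte genes measured, ZP3 had a difference of -0.32 ± 0.15, and its unadjusted p was 0.0463, or 0.0727 without J980. The part of these cell types in the results above was not tested.

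Interferon-induced genes varied widely within both groups. ISG15, named with IGHG1 and MX1 after the values were seen, ran from -1.22 to 2.09 in high and from -1.41 to 3.11 in low follicles. MX1 ran from -1.53 to 1.54 in high and from -1.34 to 3.03 in low follicles. IGHG1, an immunoglobulin heavy chain gene, had a difference of 0.07 ± 0.50. Without J980 the differences of ISG15, MX1 and IGHG1 were 0.86, 0.46 and 0.14, and with it that of ISG15 was 0.11 and that of MX1 -0.23. None of these 3 separated the groups, and J980 was the highest of the 10 for ISG15 and MX1.

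**Figure D5:**
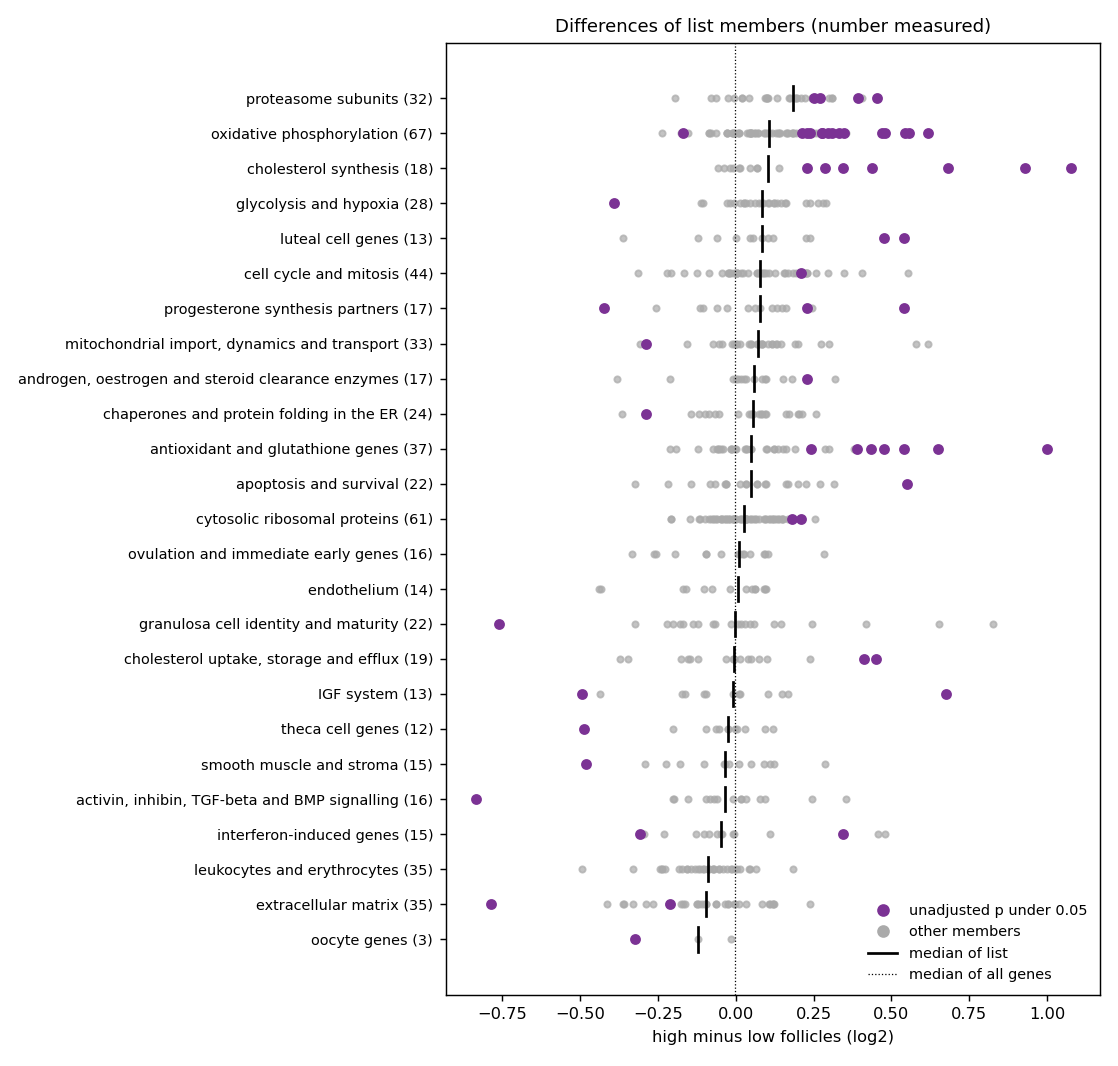
High minus low difference on the log2 scale (x axis) of each measured member of 25 gene lists (y axis, number measured in brackets), ordered by median. Purple points had an unadjusted p under 0.05 and grey points did not; ticks are list medians and the dotted line is the median of all 9028 genes, -0.002. The 3 ranking genes are left out. Cholesterol synthesis shows 7 purple points above 0 and none below.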

How the data were processed

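Per the labels' protocols, RNA was labelled with a dendrimer kit and scanned, and images were read in GenePix Pro 4.0.1.12. The authors deposited 1 log ratio per feature and array, read as log2. Absolute values reached 6.32, more than the 4.82 that log10 of 16-bit signals allows, while natural logs remain possible. For background correction and normalization, steps were not given in the sources used here, and depth (signal over background) is unknown. Deposited array medians were -0.014 to 0.0064.

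The platform annotation gave 1 symbol for 13605 of the 17418 features, which were used, several for 829 and none for 2984. By gene ID 13575 matched the RefSeq table of ARS-UCD2.0, and 0 symbols changed. Arrays were centred on their medians and all features of a symbol were averaged, also features with few values. Follicle levels were fitted with a dye term for genes with values on at least 20 arrays. Levels share arrays, so their errors are correlated. High, between and low follicles were compared with limma 3.58.1 (R 4.3.3) and Benjamini-Hochberg adjustment over 9028 genes, leaving out the 3 ranking genes, at 0.05. Single genes also had an exact two-sided permutation test over 252 splits. The step was tested on simulated data with the spread between follicles as estimated. Each setting was simulated in a single run, with genes drawn independently of each other. With no shift, the test between groups called 0 genes and the fit with array error only called 397. With 200 genes shifted by 0.5, the test between groups recovered 55%. Animals are the replicates.

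The groups, the 25 lists (828 genes, 608 measured) and the tests were chosen with earlier results of these data known. The rule named the 8 genes of smallest p in each direction when fewer than 5 passed, every measured progesterone partner and cholesterol synthesis gene, 8 fixed genes where measured and the 2 members of smallest p in each other list. Genes outside it (such as MAPK3, GSTM3 and MX1) are marked as such in the text. Other settings varied centring, scaling, array minimum, dye term, features per gene, moderation, error, ranking genes, group size and the arrays or follicles included; 2 were added after seeing the data. Figures used matplotlib 3.10.9.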

Additional observations from a re-analysis of the deposited data

Results flagged for a closer look

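Among 117 named genes, the high and the low group were each searched for a follicle far from its 4 fellows by Dixon's criterion. Of 234 gene groups, 15 were marked (6.41%), while in genes chosen without regard to their values chance marks about 1 in 20. Many of the named genes were chosen by small p or after their values were seen. CAT was kept with its outlying follicle known. These shares can therefore not be compared as a test. J980 was the follicle in 3 of them, with INHBA at -2.69 (next -0.24), NDUFA6 at -1.07 (next -0.26) and PSMB9, an immunoproteasome subunit, at 0.25 (next -0.13). Follicle 861 stood apart in the high group for AIFM1, a mitochondrial flavoprotein of cell death, at 1.13, for SCARB1 at -0.29 and for FSHR at -0.48. C26 stood apart in the low group for HMGCS1 at 0.71 and NR5A1 at -0.51. Follicle 46 did so in the low group for CDKN1A, a cell cycle inhibitor, at 0.40 and for CAT at 0.44. C35 was the lowest high follicle for TMEM134 at -0.44 and for ENO2, an enolase, at -0.45. The others were IDH1 in C12 at 0.56, HSD17B4, a peroxisomal enzyme, in H893 at 0.38, and FSTL3 in 26 at 0.24, all in the high group.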

How the results depend on the processing

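The count of genes past the threshold, 0, remained 0 in all 34 fits that left out 1 array or 1 follicle, and in the other alternatives except those named here. It was 367 with array error only, 3 (FDPS, IDI1 and MAPK3) with the top 6 against the bottom 6, and, in alternatives added after seeing the data, 123 with array error only without J980 and 228 with array error only and a ranking without FDX1. Array error holds no spread between animals. Genes whose groups do not overlap numbered 61, against 230 for the top 4 against the bottom 4, where fewer follicles must separate, and 29 for the top 6 against the bottom 6. Leaving out arrays or follicles gave 36 (without the array of follicle C26, replicate 1) to 179 (without follicle 31). MX1, at -0.23 and called lower with array error only (adjusted p = 0.0356), was at 0.46 (adjusted p = 0.00214) without J980 under that error, so its direction rests on J980. Cholesterol synthesis members higher at an unadjusted p under 0.05 numbered 7, and 3 without the array of follicle C26 (replicate 1), 4 without C35 and 4 with a ranking without FDX1. Oxidative phosphorylation members numbered 14, and 6 without that array, 7 without 861 and 21 without 31. The higher count over all genes was 249, and 113 without that array, 175 without 861 and 414 without 31. Ranking without FDX1 put C22 and 8 in place of H893 and C10. Ranked again in 24 fits without 1 array, the follicles formed the same groups in 20. Counts given without an array kept the original groups. Without the array of follicle C26 (replicate 1) a new ranking put C22 and 33 in place of H893 and C26. Without that of follicle C10 (replicate 1) it put C32 in place of C10. No paired analysis was possible because replicate numbers only follow sample order and each follicle is its own animal. The number of arrays and unknown signal over background limit what small differences can show.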

Other observations

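Gene groups not described above gave few differences. Mitochondrial import, dynamics and transport genes had a median difference of 0.07 between high and low follicles, and 0.02 without J980. Of 33 differences 25 were positive, beside 4435 of all 9028 genes. At an unadjusted p under 0.05, where 2.76% of all genes were higher and 2.5% lower, this list gave 1 lower member. It was OGDH, a subunit of a citric acid cycle enzyme, at -0.29 ± 0.14 (SE). Its unadjusted p by limma was 0.0547 without J980. Glycolysis and hypoxia genes had a median of 0.09, and 0.02 without J980. Of 28 measured, 1 (3.57%) was lower at an unadjusted p under 0.05, beside 2.5% of all genes, and 2 were without J980. Among them ENO2, the neuronal enolase, was lower in high follicles with no overlap of the groups, at -0.39 ± 0.11 (limma, adjusted p = 0.776). Cell cycle and mitosis genes had a median of 0.08, and -0.01 without J980, with MCM6, a replication helicase subunit, at 0.21 ± 0.07 and no overlap. Over all genes, 0.421% were higher and 0.255% lower without overlap.

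At an unadjusted p under 0.05, 2.76% of all genes were higher and 2.5% lower in high follicles. Androgen, oestrogen and steroid clearance enzymes had 1 member higher of 17, and genes of activin, inhibin, TGF-beta and BMP signalling 1 lower of 16. Chaperones gave 1 lower of 24, apoptosis and survival 1 higher of 22, interferon-induced genes 1 in each direction of 15, and cytosolic ribosomal proteins 2 higher of 61 (3.28%). Without J980 the ribosomal count was 0, the apoptosis count 2, and interferon-induced genes gave 1 higher and 0 lower. Their medians lay between -0.05 and 0.06.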
